A study of Homo sapiens with 14 samples.

Results

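MicroRNA (miRNA) cargo of extracellular vesicles (EVs) was compared between epicardial cells kept in basic FGF and epicardial cells kept in SB-431542. The comparison took the 7 of 14 sequenced libraries whose labels name 1 of these 2 agents, which gave 3 FGF libraries (replicate numbers 2, 3 and 4) and 4 SB libraries (numbers 1 to 4). The remaining libraries came from untreated pro-epicardial cells (NT, 3 libraries) and from cells given TGF-β1 (TGFb, 4 libraries).

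All groups started from cryopreserved pro-epicardial cells without a GFP reporter, made from the established human embryonic stem cell line hES-2 and plated in the same supplemented StemPro medium. SB cells received 6 µM SB-431542 for 8 days, from plating on. FGF cells were given basic FGF at 10 ng/ml over 8 days, beginning the day after plating, and no SB-431542. NT cells were given neither, and TGFb cells had TGF-β1 at 5 ng/ml over 4 days without SB-431542. The labels call the SB cells mature epicardial and the FGF cells stimulated epicardial. The 2 groups therefore differ both in the presence of basic FGF and in the absence of the inhibitor, and their comparison alone cannot tell the 2 agents apart. NT libraries, which had neither agent, are given beside the main values. Vesicles were precipitated from conditioned medium with polyethylene glycol, a method that also brings down particles other than EVs. All cells were of 1 line, and the labels do not say whether replicates came from separate cultures, so p-values measure only the spread between these libraries.

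The epicardium is the cell layer that covers the heart. Its cells can leave the epithelial state and become fibroblasts and the mural cells of coronary vessels, a change known as epithelial-to-mesenchymal transition (EMT). Basic FGF signals through receptor tyrosine kinases to the ERK pathway, and SB-431542 blocks the type I receptors of TGF-β, activin and nodal, so that SMAD proteins are not activated by them. A mature miRNA pairs with its targets mainly through its seed, bases 2 to 8 from the 5′ end, and miRNAs with the same seed form a family.

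The mature sequences of the miRNAs on which the comparison turns are shown because several of them share a seed, and reads of close relatives can be split between them. Seeds are in capitals, and sequences are those of RefSeq (GRCh38.p14).
miR-21-5p: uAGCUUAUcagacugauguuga
miR-143-3p: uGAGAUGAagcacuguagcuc
miR-125a-5p: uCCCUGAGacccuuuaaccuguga
miR-125b-5p: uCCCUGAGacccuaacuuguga
let-7b-5p: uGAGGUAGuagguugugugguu
let-7e-5p: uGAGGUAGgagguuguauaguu
miR-99b-5p: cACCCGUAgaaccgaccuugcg
miR-423-5p: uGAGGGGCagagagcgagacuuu
miR-423-3p: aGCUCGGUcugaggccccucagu
miR-34a-5p: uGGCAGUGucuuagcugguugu
miR-744-5p: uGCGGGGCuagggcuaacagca
miR-125a-5p and miR-125b-5p share the seed CCCUGAG, and let-7b-5p and let-7e-5p share GAGGUAG. In GRCh38.p14, MIR21 is at chr17:59841266-59841337 on the plus strand, in an exon of VMP1. MIR143 is at chr5:149428918-149429023 on the plus strand, in an exon of CARMN. MIR99B, MIRLET7E and MIR125A lie side by side on the plus strand of chromosome 19, from 51692612 to 51693339, in introns of SPACA6. MIR125B1, 1 of the hairpins that give miR-125b-5p, is in an intron of MIR100HG at chr11:122099757-122099844 on the minus strand. MIR423 is at chr17:30117079-30117172 on the plus strand, in an exon of NSRP1, MIR34A is in an exon of MIR34AHG at chr1:9151668-9151777 on the minus strand, and MIR744 is in an intron of MAP2K4 at chr17:12081899-12081996 on the plus strand.

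The libraries were shallow and uneven. The FGF libraries held 115, 3241 and 868 counts in numbers 2 to 4, and the SB libraries held 345, 179, 3826 and 1286 counts in numbers 1 to 4. One count was 0.870% of FGF replicate 2 and 0.0261% of SB replicate 3. FGF replicate 3 held 76.7% of all FGF counts and SB replicate 3 held 67.9% of all SB counts, so values are given per library as a share of its counts, and group means weight libraries equally. Of 2632 miRNAs in the table, 279 had a count in these 7 libraries: 199 in FGF, 238 in SB and 158 in both. Only 19 were counted in all 7, and 71 were seen as 1 count in total. Intervals on shares are 95% Wilson intervals, and a count of 0 is taken to allow up to 3 counts. Both cover counting error only.

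In the test across all miRNAs, 47 met the filter, which takes counts relative to library size in each library. Of these, 0 passed an adjusted p of 0.05 (0% called, edgeR quasi-likelihood test, all 14 libraries in 1 fit). Without adjustment, 3 of the 47 (6.38%) had a p under 0.05: miR-21-5p was higher in FGF, and miR-483-3p and miR-744-5p were lower. DESeq2 called 1 of the 47, miR-483-3p. The median log2 fold change over the 47 was −0.09, with 21 positive and 26 negative values, and the biological coefficient of variation was 0.778. Scaling by library size alone moved that median by 0.22. When shares were compared library by library, all 3 FGF libraries lay above all 4 SB libraries for 4 of 47 miRNAs (8.51%): miR-21-5p, miR-125b-5p, miR-143-3p and miR-320a-3p. They lay below all 4 for 1 of 47 (2.13%), miR-483-3p.

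**Figure D1:**
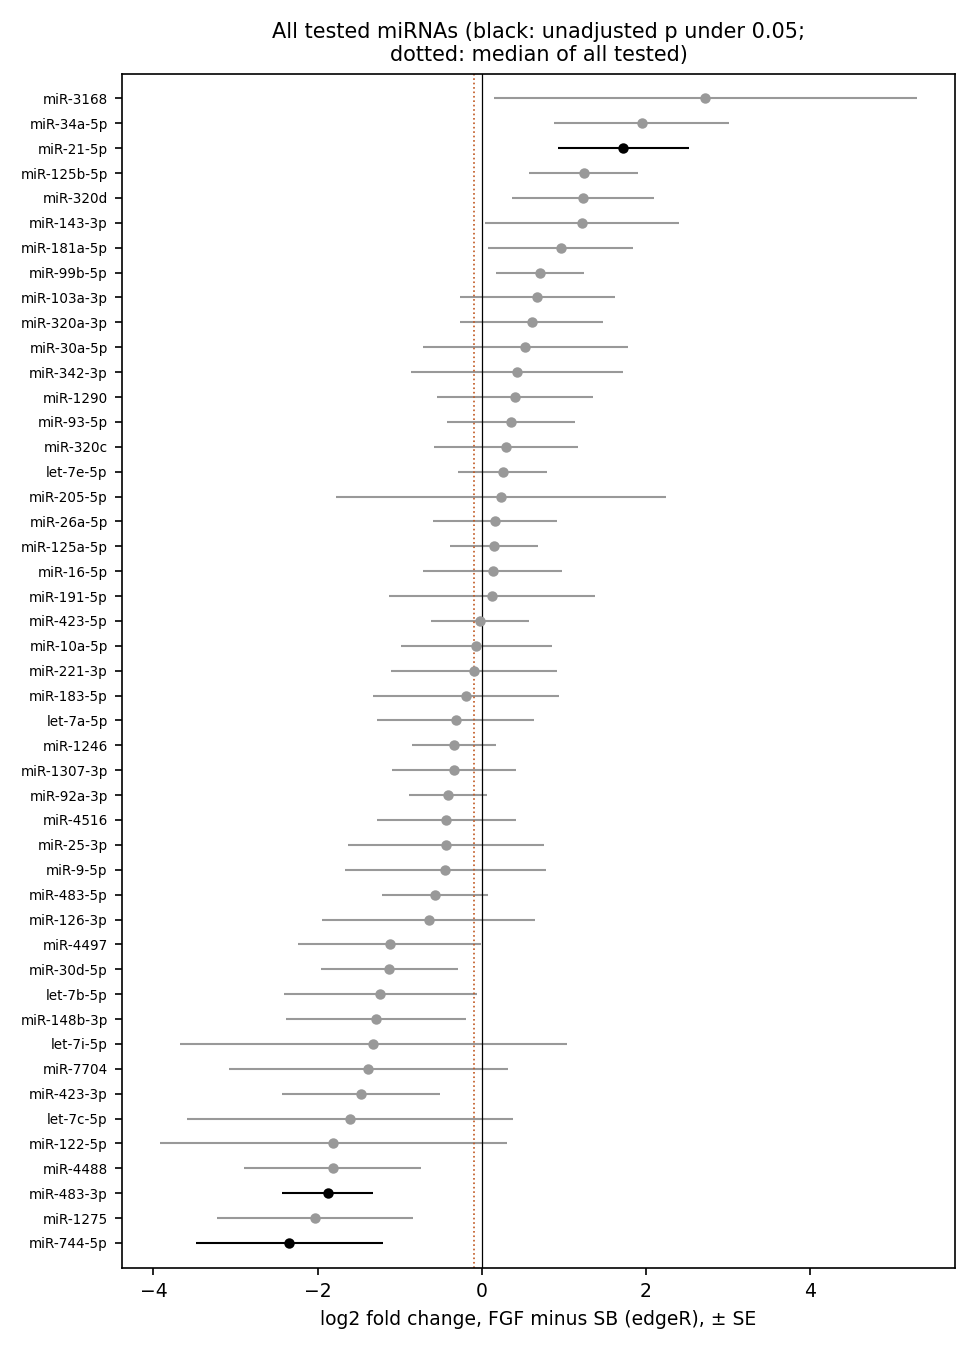
Log2 fold change of FGF against SB (horizontal axis, edgeR, bars ± 1 SE) for each of the 47 miRNAs tested, ordered by value. Black points have an unadjusted p under 0.05 (miR-21-5p, miR-483-3p and miR-744-5p), and the dotted line is the median of all 47 (−0.09).

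The 2 arms of the miR-483 hairpin, which is known to be processed from an intron of the imprinted growth factor gene IGF2, had the highest mean shares over the 7 libraries, although in FGF alone miR-483-3p came after miR-483-5p, miR-21-5p, miR-1246 and miR-125a-5p. miR-483-3p took 5.22%, 1.60% and 4.03% of counts in FGF replicates 2 to 4, and 11.0%, 11.7%, 10.8% and 8.32% in SB replicates 1 to 4. Every SB library lay above every FGF library. The group means were 3.62% ± 1.84 in FGF (SD, n = 3) and 10.5% ± 1.48 in SB (SD, n = 4), and NT libraries ranged from 6.44% to 15.5%. In bulk vesicle RNA, fewer source cells or vesicles of one kind and less of the miRNA in each cannot be told apart. The Wilson interval of FGF replicate 2, at 6 of 115 counts, ran from 2.41% to 10.9% and overlapped those of the SB libraries, whereas that of FGF replicate 3, at 52 of 3241 counts, ran from 1.23% to 2.10%. The log2 fold change was −1.88 (SE 0.55, unadjusted p = 0.00212, edgeR adjusted p = 0.0998). Blocked on the replicate number, it was −1.78 (SE 0.47, edgeR adjusted p = 0.0340), the only call of 47 (2.13%). That call was lost when library sizes were summed over all miRNAs instead of the tested ones (edgeR adjusted p = 0.230) and when the spread was estimated without robust weights (edgeR adjusted p = 0.130). The share in FGF minus that in SB was −6.51, −9.16 and −4.29 percentage points within replicate numbers 2, 3 and 4.

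miR-483-5p, the other arm, overlapped between the groups. Its share was 7.83%, 25.1% and 9.33% in FGF and 23.2%, 7.26%, 28.6% and 15.2% in SB. The highest FGF value, in replicate 3, lay among the SB values, and the lowest SB value, in replicate 2, lay below all FGF values. The log2 fold change was −0.57 (SE 0.65, edgeR adjusted p = 0.918). The summed share of both arms was 13.0%, 26.7% and 13.4% in FGF and 34.2%, 19.0%, 39.3% and 23.6% in SB, lower in FGF in each of the shared replicate numbers but with overlapping groups.

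**Figure D2:**
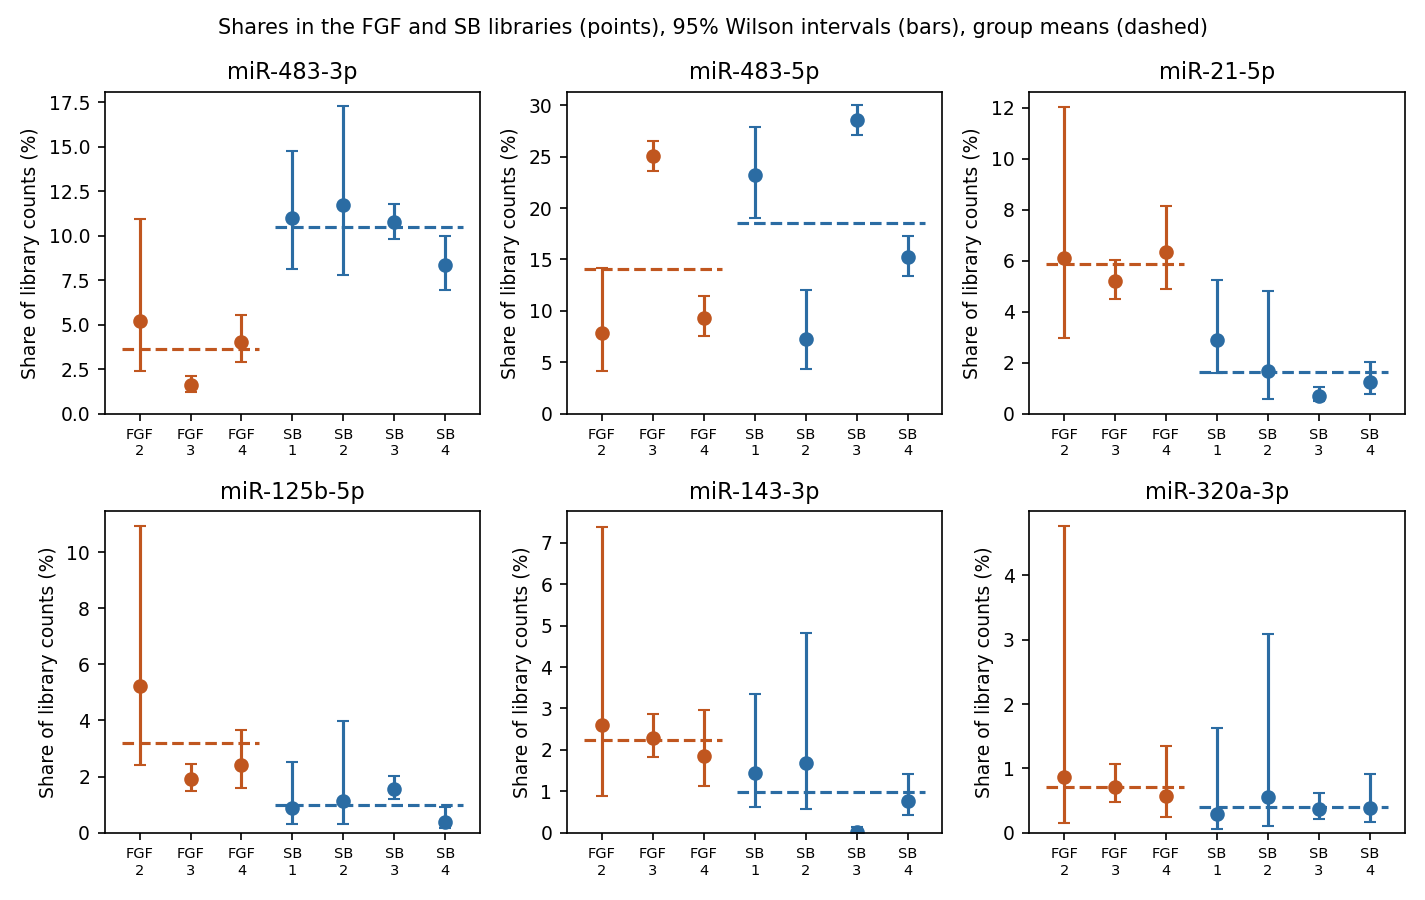
Share of library counts (vertical axis, %) of 6 miRNAs in each FGF and SB library, with 95% Wilson intervals as bars and group means as dashed lines. miR-483-3p lies at 1.60% to 5.22% in FGF and 8.32% to 11.7% in SB, miR-21-5p at 5.21% to 6.34% in FGF and 0.706% to 2.90% in SB, and miR-483-5p overlaps.

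miR-21-5p, a miRNA abundant in fibroblasts and known to be induced by growth factor and TGF-β signalling, had the second smallest p. It took 6.09%, 5.21% and 6.34% of counts in FGF and 2.90%, 1.68%, 0.706% and 1.24% in SB. The groups did not overlap, and the 3 FGF values were close to each other although the libraries differed in depth. That of FGF replicate 2 is only 7 of 115 counts. The lowest FGF value, 169 of 3241 counts, had a Wilson interval of 4.50% to 6.03%, and the highest SB value, 10 of 345 counts, had one of 1.58% to 5.25%. These intervals overlapped. The means were 5.88% ± 0.589 in FGF (SD, n = 3) and 1.63% ± 0.934 in SB (SD, n = 4). NT libraries ranged from 0.0875% to 2.67%. The log2 fold change was 1.72 (SE 0.79, unadjusted p = 0.0390), which did not pass (edgeR adjusted p = 0.704; 0.564 with the block). In a fit of the FGF and SB libraries alone, with 22 miRNAs tested, miR-21-5p and miR-483-3p both passed (edgeR adjusted p = 0.0132 for each). The difference in share was 4.41, 4.51 and 5.09 percentage points within numbers 2, 3 and 4.

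The list of EMT and fibrosis miRNAs had 14 members, 11 of them counted. It summed to 6.96%, 7.59% and 10.8% in FGF and to 4.06%, 3.35%, 1.54% and 3.03% in SB. In NT libraries the list summed to 0.814% to 5.54%. Of its 3 tested members (miR-21-5p, miR-34a-5p and miR-221-3p), 2 had a positive fold change and 0 passed, with a median of 1.72 beside −0.09 over all 47. Its untested members with at least 10 counts differed in direction. miR-29a-3p had a lower mean share in FGF (0.0974% beside 0.376% in SB, on 4 and 11 counts). miR-155-5p had a higher one (0.223% beside 0.0649%, on 8 and 4 counts). Without miR-21-5p, a subset chosen after its values were seen, the sum was 0.870% to 4.49% in FGF and 0.836% to 1.79% in SB, and the groups overlapped. The list of miRNAs induced through ERK had 8 members, 5 of them counted, and was 5.99% to 7.03% in FGF and 1.05% to 3.19% in SB. miR-21-5p made up most of that sum: without it, the means were 0.488% in FGF and 0.491% in SB. With miR-21-5p included, the ERK list summed to 0.666% to 3.66% in NT libraries.

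miRNAs linked to SMAD signalling, which SB-431542 blocks upstream, were listed separately (15 members, 13 counted). Their sum was 9.60% to 13.2% in FGF and 2.38% to 5.29% in SB. NT libraries, which had no inhibitor, ranged from 1.95% to 7.33%, and TGFb libraries from 1.48% to 7.44%. The part of the inhibitor in this sum was not tested. The list shares miR-21-5p with the EMT and ERK lists and miR-143-3p with the mural list, so these sums are not independent of each other. Without miR-21-5p the groups did not overlap (4.35% to 6.91% in FGF and 1.67% to 4.04% in SB). Without both miR-21-5p and miR-143-3p the groups overlapped, at means of 2.97% and 1.45%. In FGF replicate 2 the whole list, with miR-21-5p, held only 12 counts. No interval was computed for these sums, so counting error could change their order. Of the 8 SMAD-linked members with at least 10 counts, 3 were tested. These, miR-21-5p, miR-143-3p and miR-181a-5p, had positive fold changes, and 0 passed. Among the untested ones, miR-182-5p had a lower mean share in FGF (0.115% beside 0.260% in SB, on 3 and 26 counts). miR-181b-5p (0.539% beside 0.445%), miR-155-5p, miR-23a-3p and miR-24-3p had higher ones.

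miR-34a-5p, a target of p53, had the second largest positive fold change (1.95, SE 1.06, edgeR adjusted p = 0.704). It was counted 0, 44 and 23 times in FGF and 0, 1, 13 and 6 times in SB. Its share was 1.36% in FGF replicate 3 and 2.65% in FGF replicate 4, above the SB maximum of 0.559%. The 0 in SB replicate 1 allows a share of up to 0.870%, which is also below those 2 FGF values, whereas the 0 in FGF replicate 2 allows up to 2.61%, so that library could not be placed.

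miRNAs known from mural cells and stroma were represented mainly by miR-143-3p, which is abundant in smooth muscle, and by miR-199a-3p, which is found in fibroblasts. miR-143-3p took 2.61%, 2.28% and 1.84% in FGF and 1.45%, 1.68%, 0.0261% and 0.778% in SB. SB replicate 3 held 1 count of it among 3826, and FGF replicate 2 held 3 among 115. The groups did not overlap, but the log2 fold change of 1.22 was close to its SE of 1.18 (edgeR adjusted p = 0.898). miR-199a-3p, which did not meet the filter and was not tested, was counted 4, 30 and 1 times in FGF and 0, 0, 2 and 1 times in SB. Over the 5 members of the list, 4 had counts, 130 in FGF and 24 in SB. The sum was 6.96%, 3.21% and 2.07% in FGF and 1.45%, 1.68%, 0.131% and 0.855% in SB. NT and TGFb libraries lay between 0% and 1.30%.

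The miR-99b, let-7e and miR-125a cluster, whose members derive from 1 stretch of chromosome 19, summed to 9.57%, 10.5% and 10.8% in FGF and to 5.51%, 4.47%, 8.65% and 8.48% in SB. The FGF values lay close together and above all SB values. However, the sum of FGF replicate 2 is 11 of 115 counts, and those of SB replicates 1 and 2 are 19 and 8 counts. No interval was computed for these sums, so counting error could change their order. NT libraries ranged from 9.70% to 23.9%. All 3 tested members had positive fold changes and 0 passed: miR-99b-5p at 0.71 (SE 0.54), let-7e-5p at 0.26 (SE 0.54) and miR-125a-5p at 0.15 (SE 0.54). miR-125a-5p took 6.09%, 4.60% and 3.57% in FGF and 2.90%, 1.12%, 4.70% and 4.28% in SB, with overlapping groups, and its fold change turned negative when FGF replicate 3, SB replicate 1 or SB replicate 2 was left out.

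miR-125b-5p, which has the same seed and comes from other hairpins, took 5.22%, 1.91% and 2.42% in FGF and 0.870%, 1.12%, 1.57% and 0.389% in SB. The lowest FGF value lay just above the highest SB value, and both came from replicate 3, at 62 and 60 counts. The log2 fold change was 1.24 (SE 0.66, edgeR adjusted p = 0.704). When counts of miR-125a-5p and miR-125b-5p were added, so that the split of reads between them no longer mattered, the groups overlapped: 11.3%, 6.51% and 5.99% in FGF and 3.77%, 2.23%, 6.27% and 4.67% in SB. The fold change of that family was 0.49 (SE 0.58, edgeR adjusted p = 0.835).

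**Figure D3:**
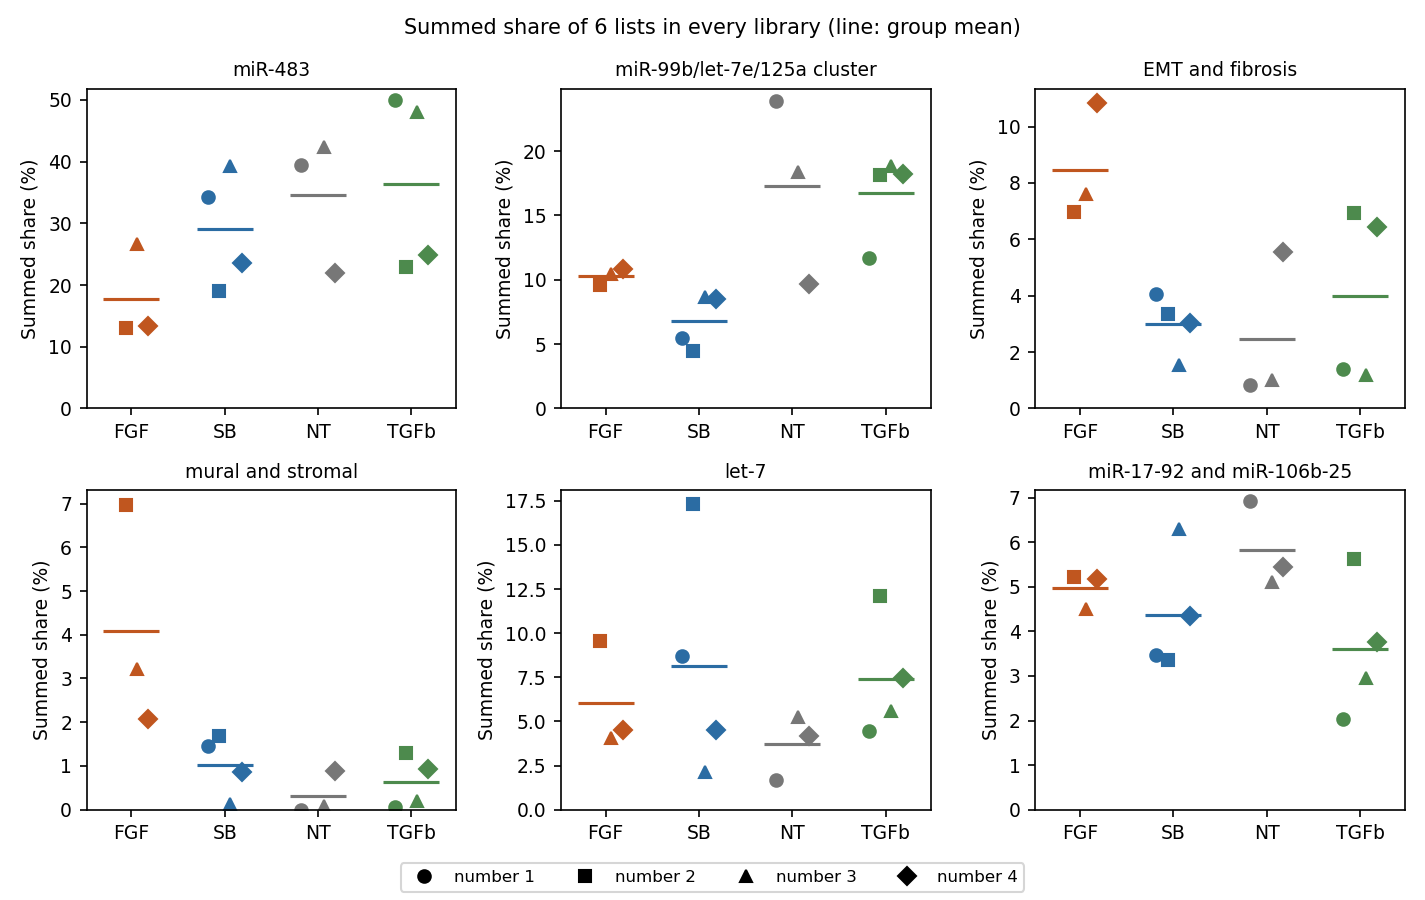
Summed share of library counts (vertical axis, %) of 6 lists in every library, with 1 marker shape per replicate number and a line at the group mean. FGF lies above SB in all libraries for the EMT and fibrosis, mural and stromal, and miR-99b cluster lists. The miR-483, let-7, and miR-17-92 and miR-106b-25 lists overlap.

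The let-7 family, which restrains growth and stem cell genes, overlapped widely. Its 9 members summed to 9.57%, 4.07% and 4.49% in FGF and to 8.70%, 17.3%, 2.12% and 4.51% in SB. The highest values belonged to the shallowest library of each group. Of 5 tested members, 4 had negative fold changes and 0 passed, and the family as a whole gave −0.71 (SE 0.59, edgeR adjusted p = 0.835). let-7b-5p, at −1.24 (SE 1.18), ranged from 0.230% to 3.48% in FGF and from 0.183% to 7.82% in SB. Without SB replicate 2 its fold change was 0.01.

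miRNAs associated with proliferation overlapped between the groups. The miR-17-92 and miR-106b-25 clusters summed to 4.50% to 5.22% in FGF and 3.35% to 6.30% in SB. Their main member, miR-92a-3p, gave a log2 fold change of −0.41 (SE 0.48, edgeR adjusted p = 0.918). miR-16-5p, of the family that restrains the cell cycle, was counted 0 times in FGF replicate 2 and otherwise took 2.62% and 4.26% in FGF and 0.559% to 3.42% in SB. Its fold change was 0.13 (SE 0.85). The miR-30 family and the miR-23, miR-27 and miR-24 group also overlapped, with summed shares of 0.870% to 4.15% and 0% to 2.65% in FGF and of 2.03% to 3.35% and 0% to 1.40% in SB.

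Short sequences that are abundant in vesicle preparations and may derive from other RNAs formed a further list of 12. It summed to 19.1%, 13.0% and 7.83% in FGF and to 8.41%, 11.7%, 11.3% and 10.0% in SB. miR-1246, its most abundant member, which can arise from a small nuclear RNA, took 4.90% ± 2.04 in FGF (SD, n = 3) and 4.92% ± 1.86 in SB (SD, n = 4). miR-320a-3p, which is made without Drosha, was singled out after its values were seen. It took 0.870%, 0.710% and 0.576% in FGF and 0.290%, 0.559%, 0.366% and 0.389% in SB. The FGF value of 0.870% and the highest SB value, 0.559%, both in replicate 2, are each 1 count. Their order follows only from the totals of 115 and 179, and the lack of overlap with 0.576% rests on that 1 SB count. The log2 fold change of miR-320a-3p was 0.61 (SE 0.87, edgeR adjusted p = 0.945). miR-3168 had the largest positive fold change, 2.72 (SE 2.58, edgeR adjusted p = 0.898), on 10 counts in all, 6 of them in FGF replicate 2. Without that library it was −1.70. miR-7704 took 6.96%, 0% and 0.691% in FGF and 5.51%, 3.91%, 2.04% and 2.64% in SB, and its 0 in FGF replicate 3 allows up to 0.0926%.

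Among the miRNAs lower in FGF, miR-744-5p stood at a log2 fold change of −2.35 (SE 1.14, unadjusted p = 0.0491, edgeR adjusted p = 0.704). It was counted 0, 7 and 0 times in FGF and 1, 0, 22 and 14 times in SB. The 0 in FGF replicate 4 allows up to 0.346%, below the 1.09% of SB replicate 4. All 7 FGF counts came from replicate 3, without which no FGF count remained and the fitted value was −6.63. Over its 22 other settings the fold change ran from −6.63 to −1.58. miR-1275 followed at −2.03 (SE 1.20, edgeR adjusted p = 0.704), with 32 of its 40 SB counts in replicate 4. Without that library its fold change was −0.05. GC-rich miRNAs took a smaller part of the counts in 2 FGF libraries: mature sequences of at least 70% GC made up 13.3%, 4.79% and 5.87% of counts with a known sequence in FGF and 19.8%, 8.76%, 12.2% and 18.1% in SB. Across 43 miRNAs with a sequence, the log2 fold change had a Pearson r of −0.37 and a Spearman rho of −0.16 with GC content. This is a description across miRNAs of the same libraries, and the part of GC content in these results was not tested.

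Numbers 2 to 4 hold 1 library of each group. FGF had the higher share in all 3 of them for 6 of 47 miRNAs (12.8%), namely the 4 without overlap and let-7e-5p and miR-320d. In FGF replicate 2, where 1 count is 0.870%, miR-320a-3p took 0.870%, let-7e-5p 1.74%, and miR-143-3p and miR-320d 2.61%. Their order in number 2 therefore rests on few counts. FGF had the lower share in all 3 for 4 of 47 (8.51%): miR-483-3p, miR-423-3p, miR-148b-3p and miR-30d-5p. The last 3 each had 0 counts in FGF replicate 2, which allows up to 2.61%, above the SB replicate 2 shares of 0.559% for miR-423-3p, 1.68% for miR-148b-3p and 1.68% for miR-30d-5p, so no order could be read for them in number 2. miR-30d-5p took 1.14% and 0.691% in FGF replicates 3 and 4 and 1.09% to 2.03% in SB. miR-148b-3p took 0.525% and 0.576% in those FGF libraries and 0.653% and 1.79% in SB replicates 3 and 4. In a fit of only these 6 libraries with the pairs as a block, 24 miRNAs were tested and miR-483-3p passed (log2 fold change −2.24, SE 0.50, edgeR adjusted p = 0.00111), whereas miR-21-5p did not (1.90, SE 0.64, edgeR adjusted p = 0.0576).

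Counts were also summed over miRNAs with the same seed. Of 42 families and single miRNAs tested, 0 passed (0%). The unadjusted p was under 0.05 for 3 (7.14%), the same 3 miRNAs as before, since none of them had a second family member among the counted miRNAs with a sequence. miR-483-3p, for which no sequence was used, gave −1.91 (SE 0.62, edgeR adjusted p = 0.194) and miR-21-5p gave 1.68 (SE 0.75, edgeR adjusted p = 0.442). Of the larger families, that of miR-320b, miR-320c, miR-320d and miR-4429 summed to 2.61%, 3.49% and 2.65% in FGF and 0.290%, 3.35%, 1.28% and 1.79% in SB, with overlap. No sequence was used for miR-320a-3p and miR-30d-5p either, so they were kept as single miRNAs. The seed sums of the miR-320 and miR-30 families leave them out and are not complete.

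The ratio of the 2 arms of a hairpin is taken within a library. Only 3 hairpins had enough counts. For miR-423, log2(3p/5p) was −2.81, −2.39 and −3.54 in FGF and −0.53, −0.74, −1.71 and −1.72 in SB. With 0.5 added to each count, all FGF ratios lay below all SB ratios, with means of −2.92 ± 0.58 (SD, n = 3) and −1.17 ± 0.63 (SD, n = 4). The difference was −1.74 (two-sided exact permutation test, p = 0.0286, the smallest that 3 against 4 libraries allow; adjusted p = 0.0857 over the 3 hairpins). It did not pass after adjustment. The counts of miR-423-3p, singled out after its values were seen, were 0, 19 and 1 in FGF and 4, 1, 25 and 13 in SB, so that 2 of the FGF ratios rest on 0 and 1 counts of that arm. The 0 in FGF replicate 2, beside 3 counts of 5p, allows up to 3 counts, at which its ratio would be 0.00 and above every SB ratio, so the place of that library among the SB libraries, and with it the p of 0.0286, could not be settled at this depth. Without that library the difference was −1.79 (exact permutation p = 0.0667, the smallest that 2 against 4 libraries allow). For miR-483 the difference was −1.23 (exact permutation p = 0.4, adjusted p = 0.6), and FGF replicate 3 stood lowest at −3.95. Without that library the difference was −0.21, and without FGF replicate 2 it was −1.91. For miR-99b it was 0.02 (exact permutation p = 0.943, adjusted p = 0.943). The miR-99b ratios of FGF replicate 2 and SB replicates 1 and 2 rest on 0 counts of 3p, beside 2, 4 and 4 of 5p. At the 3 counts that a 0 allows they would be 0.49, −0.36 and −0.36, so the difference could not be settled at this depth.

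**Figure D4:**
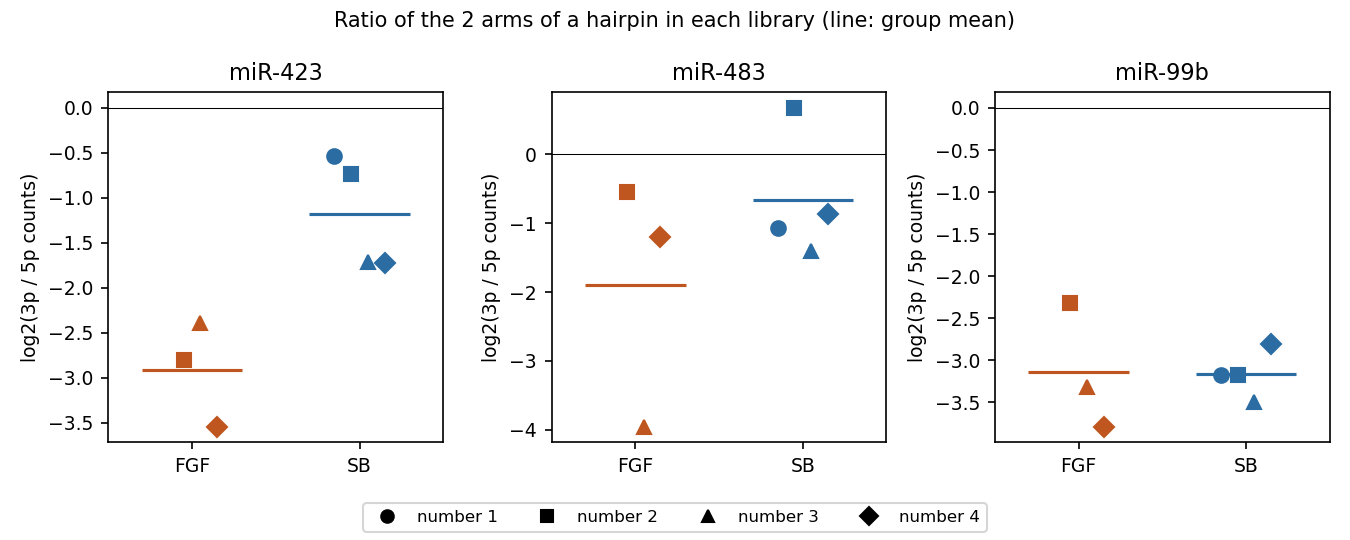
Log2 ratio of 3p to 5p counts (vertical axis, 0.5 added to each count) for 3 hairpins in each FGF and SB library, with 1 marker shape per replicate number and a line at the group mean. For miR-423 the plotted FGF ratios (−3.54 to −2.39) lie below the SB ratios (−1.72 to −0.53), with FGF replicate 2 resting on 0 counts of 3p. For miR-483 and miR-99b the groups overlap. The miR-99b ratios of FGF replicate 2 and SB replicates 1 and 2 rest on 0 counts of 3p.

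Counts seen in 1 group only were few. In FGF alone there were 41 miRNAs with at most 6 counts each, led by miR-193b-5p (6 counts, all in replicate 3), miR-142-3p and miR-374a-5p (5 counts each). In SB alone there were 80 with at most 5 counts each, led by miR-146b-5p and miR-362-5p. For comparison, 25 of the 41 and 41 of the 80 were also counted in NT. At this depth a presence in 1 group only could not be told from sampling.

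Markers of other cell types were summed in the same way. Of 8 miRNAs of undifferentiated stem cells, 7 had 0 counts and the eighth had 1, in SB. Of 6 cardiomyocyte miRNAs 4 had 0 counts, and the sum was 0% to 0.0926% in FGF and 0% to 0.870% in SB. Blood cell miRNAs (2 of 6 at 0) reached 0.185% to 0.870% in FGF and 0% to 0.156% in SB, on 9 and 4 counts. The FGF value of 0.870%, in replicate 2, is 1 count. SB replicates 1 and 2 held 0 counts, which allow up to 0.870% and 1.68%, so no order of the groups could be read. The part of blood cell miRNAs in the miR-21-5p and mural results was not tested. The blood members at 0 were miR-451a and miR-144-3p. Counts in FGF and SB were 2 and 1 for miR-486-5p, 2 and 1 for miR-223-3p, 5 and 0 for miR-142-3p, and 0 and 2 for miR-142-5p. The endothelial miR-126-3p and miR-126-5p summed to 0% to 1.04% in FGF and 0% to 3.91% in SB. miR-122-5p of liver and serum ranged from 0.0309% to 0.870% in FGF and from 0% to 3.91% in SB. Of 3 neural miRNAs only miR-9-5p was counted, at 0.278% to 3.48% in FGF and 0.288% to 2.90% in SB. All 7 epithelial miRNAs had counts, 39 in FGF and 31 in SB, and their sums overlapped at 0.617% to 2.61% and 0% to 1.71%. Within numbers 2, 3 and 4 the sum was higher in FGF each time, at 2.61% beside 0%, 0.617% beside 0.157% and 1.84% beside 1.71%. The FGF value in number 2 is 3 counts, and the 0 in SB replicate 2 allows up to 1.68%. The members differed in direction. miR-203a-3p had 18 counts in FGF and 2 in SB, whereas miR-200c-3p had 7 and 10, miR-205-5p 8 and 11, and miR-429 1 and 6. miR-141-3p, miR-200a-3p and miR-200b-3p had at most 3 counts in either group. The part of these miRNAs in the other results was not tested.

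No difference in size or diversity of the libraries passed a test. Totals averaged 1408 ± 1631 in FGF (SD, n = 3) and 1409 ± 1683 in SB (SD, n = 4; two-sided exact permutation test, p = 1). Within numbers 2 to 4, FGF had fewer counts in each pair, at a mean difference of −355.7 (two-sided exact sign-flip test, p = 0.25, the smallest that 3 pairs allow). At an equal depth of 115 counts, 45.7 ± 6.86 miRNAs were expected in FGF and 44.8 ± 5.19 in SB (exact permutation p = 0.914). The 10 most abundant miRNAs of each library took 51.9% ± 7.86 in FGF and 56.6% ± 7.73 in SB (exact permutation p = 0.457). With 3 against 4 libraries these tests can show only large differences.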

How the data were processed

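Small RNA libraries were made with the QIAseq miRNA kit from RNA of precipitated vesicles, per the labels' protocols. The authors' deposited table of raw counts (whole numbers per mature miRNA, not normalized) was used. The aligner, the miRNA annotation and the use of molecular identifiers are not given in the sources used here; the submitters' processing notes name GRCh38. A second deposited table, of values adjusted by the authors, was treated as a score because no source states how it was made. It altered 1084 of 2001 nonzero values and was used only as an alternative. Its 2 unnamed lines were left out.

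Counts of all 14 libraries were fitted in edgeR 4.0.16 (R 4.3.3; filterByExpr by group, minimum count 10, TMM, robust quasi-likelihood), with Benjamini-Hochberg adjustment and a threshold of 0.05. SEs are the absolute log2 fold change over the square root of F. Alternatives used DESeq2 1.42.0 and limma 3.58.1. Single values were compared by exact permutation tests (scipy 1.17.1). The edgeR step was tested on simulated data.

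The members, lists and tests were chosen with earlier results of these data known. Library sizes were summed over the tested miRNAs. An earlier version of the fit summed them over all miRNAs (miR-483-3p: edgeR adjusted p = 0.355); the version used follows an earlier analysis of these data. It was settled after both, and a grid of combinations of filter, library size and robust settings with and without the block, had been seen. The two-sided exact p was first the doubled tail (0.0571 for miR-423, adjusted p = 0.171) and was changed, after its value was seen, to the share of splits with a difference at least as large.

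miRNAs were named if they had an unadjusted p under 0.05, passed with or without the block, were among the 15 highest mean shares, the 5 largest group-only counts (ties kept) or the 3 largest fold changes per direction, or were list members. miR-423-3p, miR-320a-3p, miR-320d, miR-148b-3p, miR-30d-5p, miR-181a-5p, miR-221-3p, miR-199a-3p, miR-29a-3p, miR-155-5p, miR-181b-5p, miR-182-5p, miR-23a-3p and miR-24-3p fall outside the first parts of the rule. The lists' sums without their leading members and the counts of single epithelial miRNAs were added after values were seen.

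FGF and SB libraries of the same number deviated together from their group means (r of 0.215, 0.251 and 0.306 for numbers 2, 3 and 4, over 47 miRNAs), each over 0.1, so the numbers were taken to pair the libraries, with the blocked calls of the earlier analysis known. The blocked fit uses all 14 libraries, and over its 4 groups 3 of 18 same-number pairs were not over 0.1 (r from 0.00574 to 0.628). The 2 pairs with different numbers and r over 0.1 had 0.202 and 0.270, the latter above the r of numbers 2 and 3. In both groups, number 2 was the shallowest library and number 3 the deepest. The part of depth in these correlations was not tested, so they do not establish a pairing. Sequences were matched by name for 253 of the 279 miRNAs, and host genes come from the GENCODE annotation of GRCh38.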

Additional observations from a re-analysis of the deposited data

How the results depend on the processing

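No miRNA passed in the fit without a block, and the count stayed at 0 in 23 of 29 other fits, including the 14 that each left out 1 library, RLE factors, library size alone, no filter, a mean count of 10 or more, leaving out libraries under 500 counts, library sizes over all miRNAs and no robust estimation. It was 2 with only the FGF and SB libraries, and 1 each with the replicate block, the block on numbers 2 to 4, the log2 library total as a covariate, DESeq2 and the authors' adjusted table. miR-483-3p was called in each of these 6 and was negative in all 30 fits (−2.24 to −1.50, adjusted p from 0.00111 to 0.831). miR-21-5p was positive in all 30 (1.43 to 2.41) and called in 1. For seed families the count was 2 with only the FGF and SB libraries (edgeR adjusted p = 0.0105 for miR-21-5p and 0.0166 for miR-483-3p), 1 with the block on numbers 2 to 4 and 0 otherwise. That 1 call was miR-21-5p (edgeR adjusted p = 0.000200; miR-483-3p 0.0923), whereas the miRNA fit of the same 6 libraries called miR-483-3p. The replicate block changed no other call. Library sizes over all miRNAs, fits without robust estimation and all alternatives to the counts without overlap were added after the data were seen.

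Some directions turned. miR-125a-5p was −0.11 with the block on numbers 2 to 4, −0.33 in libraries of at least 500 counts and −0.15 to 0.37 with 1 library left out. let-7b-5p was 0.88 in libraries of at least 500 counts and −1.74 to 0.010 with 1 left out. miR-423-5p was 0.24 by library size, 0.052 without a filter, 0.093 with the 2 groups alone, 0.10 with library sizes over all miRNAs (0.055 with the block), 0.055 in the adjusted table and −0.46 to 0.35 with 1 left out. miR-16-5p was −0.050 with the replicate block (also without robust estimation), −0.17 with the block on numbers 2 to 4, −1.20 in the adjusted table and −0.20 to 0.58 with 1 left out. let-7e-5p was −0.040 with the block on numbers 2 to 4. miR-9-5p was 0.20 in libraries of at least 500 counts, 0.53 in the adjusted table and −1.31 to 0.18 with 1 left out. miR-3168 ran from −1.70 to 3.53 with 1 left out. The miR-99b arm difference was −0.14 with an added count of 1 and −0.39 to 0.34 with 1 left out. The cause of these changes was not tested.

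Of the 47 tested miRNAs, those whose shares did not overlap were more with fewer libraries. In libraries of at least 500 counts, 2 of FGF and 2 of SB, 11 were higher and 8 lower in FGF. With 1 library left out, 4 to 7 were higher and 1 to 3 lower. Fewer libraries make a lack of overlap easier to reach, so these counts are not results about the miRNAs. The difference in totals ran from −917.5 to 804.7 counts with 1 library left out. That in miRNAs detected at 115 counts ran from −2.85 to 3.82, and was −0.40 within pairs (replicate block). The exact test of arm ratios by pairs cannot go below p = 0.25. Depth limits all shares in FGF replicate 2, where 1 count is 0.870%.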
